A study of Sus scrofa with 16 samples.

Results

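Hearts of 8 Tibetan pigs were compared with hearts of 8 Yorkshire pigs over both elevations, by the number of animals of each breed that had a peak of DNA methylation in each 500 bp window of chromosomes 1 to 18. All 16 animals of the series entered the comparison, and 155695 of the 620135 windows with a peak in any animal (25.1%) could be tested, namely those with a peak in 5 to 11 of the 16 animals. A total outside these limits cannot give an unadjusted p under 0.05 in an exact test of 8 against 8. The Tibetan side joined the Tibetan highland (TH) and Tibetan lowland (TL) groups, and the Yorkshire side joined the Yorkshire highland (YH) and Yorkshire lowland (YL) groups. Each group had 4 castrated boars of 6 months of age, conceived and raised at their site. The YH and TL animals came from stocks moved away from the home elevation of their breed and bred at the new site for about 1 generation, so the breeds were compared with home and moved animals on each side.

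CpG methylation is the addition of a methyl group to cytosine that is followed by guanine. It is kept through cell division, is dense over repeats and gene bodies, and is mostly absent from the CpG-rich promoters of active genes. In methylated DNA immunoprecipitation sequencing (MeDIP-seq), an antibody against 5-methylcytosine pulls down sheared DNA, and reads pile up over methylated stretches that also hold enough CpG sites. Because the antibody reads fragments, a peak marks a stretch of DNA as long as the sheared fragments or longer, and not a single cytosine. A window without a peak is one in which the caller found no enrichment, which is not the same as a window without methylation.

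The deposited peaks come as 1 list per group, in which at most 4 peaks lie over any base, and the number of peaks over base 250 of a window was read as the number of animals (0 to 4). The lists carry no animal names, so the animals can be counted but not followed from window to window. On chromosomes 1 to 18 the lists held 240851 peaks in TL, 258861 in TH, 263514 in YH and 305654 in YL, with median tags per peak of 25, 27.0, 29.0 and 30. Both Yorkshire lists thus held more peaks and more tags per peak than both Tibetan lists, although their median fold enrichment was lower (7.29 in YH and 7.49 in YL against 8.28 in TH and 7.88 in TL). TH stood apart in another way, since only 5.74% of its windows were shared by all 4 of its animals, against 9.70% in TL, 12.3% in YL and 13.2% in YH. The part of list size in the results below was measured with equal lists, and reads per animal were not used here. Peaks of DNA hold no marker of a cell type, so the heart label was not checked. Whether the 4 animals of a list shared a litter is not given in the sources used here.

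Yorkshire animals had a peak more often than Tibetan animals in most windows that differed. In a two-sided Fisher exact test per window, 11264 windows had an unadjusted p under 0.05, which is 7.23% of those tested. Of these, 9714 windows (6.24% of those tested) held more Yorkshire animals and 1550 (0.996%) held more Tibetan animals, so the Yorkshire side took 86.2% (95% Wilson interval 85.6–86.9%, counting error only, neighbouring windows share peaks). No window passed Benjamini-Hochberg adjustment over all tested windows (0 windows, 0%), and the lowest adjusted p was 0.255. The same exact test stratified by elevation gave 11264 windows at an unadjusted p under 0.05 and also 0 after adjustment. Single windows are therefore described below by their counts, without a claim that any of them passed the adjusted test.

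At equal list size the direction was kept but less one-sided. When each list kept its 240851 peaks with the most tags, 10110 windows had an unadjusted p under 0.05, and 80.8% of them were on the Yorkshire side. The mean difference over tested windows, in animals with a peak, was -0.956 (Tibetan minus Yorkshire) with the full lists and -0.781 with equal lists. Of the 9714 Yorkshire-side windows, 8082 (83.2%) were called again with equal lists, as were 1423 of the 1550 Tibetan-side windows (91.8%).

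The requirement that the direction agree at both elevations removed no window, and it could remove none. With 4 animals per list, each count that gives an unadjusted p under 0.05 forces more animals of the same breed at high and at low elevation, and all 11264 windows showed this. A stricter form, a difference of at least 2 animals at each elevation, was met by 9775 windows (86.8%), of which 8434 were on the Yorkshire side and 1341 on the Tibetan side. Averaged over the tested windows, the difference in animals with a peak was -0.247 for TH minus YH and -0.708 for TL minus YL. Tested windows had a peak in 1.70 of 4 animals in TH, 1.5 in TL, 1.94 in YH and 2.21 in YL.

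The breeds were also compared at each elevation alone and with each list left out. With the highland animals alone (4 against 4, exact test), 2303 of 41257 tested windows (5.58%) had an unadjusted p under 0.05. Of these, 79.3% were on the Yorkshire side. With the lowland animals alone there were 3747 such windows (8.78% of 42699), of which 88.5% were on the Yorkshire side. Without the TH list (4 Tibetan against 8 Yorkshire animals), 5245 windows (2.69% of 195316) had an unadjusted p under 0.05, with a Yorkshire share of 69.4%. Without TL there were 4848 windows (2.34% of 207034) with a share of 55.8%. Without YL there were 5190 windows with a share of 92.9%, and without YH 7752 windows with a share of 96.5%. Leaving out a list makes the sides unequal in size, which by itself changes which counts can pass in each direction. The shares with a list left out therefore cannot show which list carried the difference. The Yorkshire share stayed above 50% in each case run.

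**Figure D1:**
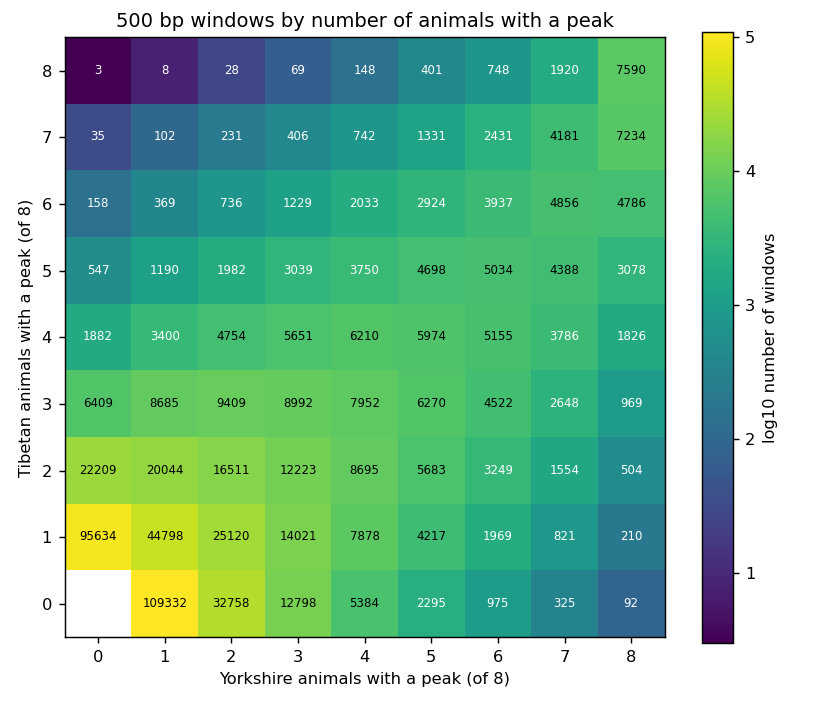
Number of 500 bp windows on chromosomes 1 to 18 for each number of Yorkshire animals (horizontal axis, 0 to 8) and of Tibetan animals (vertical axis, 0 to 8) with a peak, coloured by log10 of the number of windows. The lower right corner (92 windows with 8 Yorkshire animals and 0 Tibetan animals) is fuller than the upper left corner (3 windows with 8 Tibetan animals and 0 Yorkshire animals).

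Other balanced contrasts of the same 16 animals gave fewer windows than breed. Elevation (TH and YH against TL and YL) gave 2526 windows at an unadjusted p under 0.05 (1.62% of those tested), and the crossed contrast of breed and elevation (TH and YL against TL and YH) gave 4303 (2.76%). In both of them 0 windows passed adjustment and the lowest adjusted p was 1.00. Breed thus gave 11264 windows against 2526 and 4303, from the same animals, windows and test. The 3 contrasts use the same libraries and are therefore not independent of each other. In the crossed contrast 3114 of the 4303 windows were on the side of TH and YL, the larger list of each breed, and with equal lists 2411 of 4027 were.

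**Figure D2:**
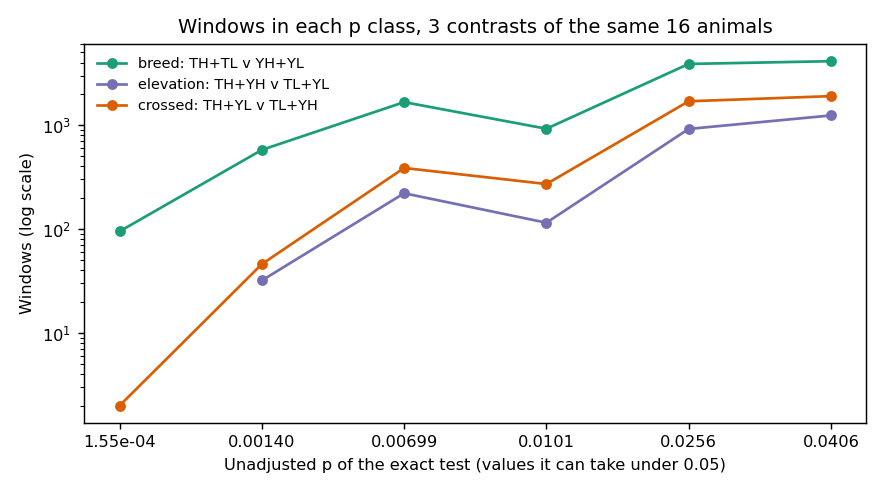
Number of windows (vertical axis, log scale) at each unadjusted p under 0.05 that the exact test of 8 against 8 can take (horizontal axis), for the breed, elevation and crossed contrasts of the same 16 animals. The breed contrast lies above both others at each p, with 95 windows at the smallest p against 2 for the crossed contrast and 0 for elevation, which has no point there.

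The strongest class held the windows in which the breeds differed by at least 7 animals. There were 673 such windows (0.432% of those tested), against 32 for elevation (0.0206%) and 48 for the crossed contrast (0.0308%). Of the 673, 627 were on the Yorkshire side and 46 on the Tibetan side (Yorkshire share 93.2%, 95% Wilson interval 91.0–94.8%). Complete separation, with a peak in all 8 animals of one breed and none of the other, was seen in 95 windows, 92 of them Yorkshire (exact test, p = 1.55e-04, the smallest that 8 against 8 allows). With equal lists the class held 555 windows, 488 Yorkshire and 67 Tibetan, among them 482 of the 627 Yorkshire windows and 45 of the 46 Tibetan windows. With peaks of at least 20 tags it held 632 windows, 607 Yorkshire and 25 Tibetan, among them 451 of the 627 Yorkshire windows (71.9%) and 23 of the 46 Tibetan windows.

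Near misses came from both elevations. Among the Yorkshire windows in which 7 of 8 animals had a peak and no Tibetan animal did, the missing animal was from YH in 181 and from YL in 144. Where all 8 Yorkshire animals and 1 Tibetan animal had a peak, the Tibetan animal was from TH in 109 windows and from TL in 101. On the Tibetan side the missing animal was from TH in 17 windows and from TL in 18, while a Yorkshire animal with a peak was from YH in 2 and from YL in 6.

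Joined to their neighbours, the 673 windows formed 480 regions, 442 on the Yorkshire side and 38 on the Tibetan side. Of the Yorkshire regions, 294 were a single window, 118 had 2 windows, 23 had 3 and 7 had 4 windows. Of the Tibetan regions, 30 were a single window and 8 had 2 windows, and the median length was 500 bp on both sides. A region was not always free of the other breed. No peak of the other breed overlapped 176 of the 442 Yorkshire regions and 22 of the 38 Tibetan regions, and within 2000 bp on either side the other breed had no peak at 105 (23.8%) and 14 (36.8%) regions.

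Peaks in the strongest Yorkshire windows were longer than the Yorkshire peaks of all tested windows, with a median of 1219 bp in YH and 1265 bp in YL beside 1112 and 1136 bp. The few Tibetan peaks in these windows were longer too, with a median of 1150 bp in TH and 1137 bp in TL beside 1069 and 1018 bp. For the Yorkshire peaks, the median tags were 34.0 in YH and 36.0 in YL and the median fold enrichment 6.89 and 7.35, beside 31.0 and 33.0 tags and a fold enrichment of 7.07 and 7.36 over all tested windows. In the strongest Tibetan windows the median tags were 26.0 in TH and 28.0 in TL and the median fold enrichment 8.94 and 8.32, beside 29.0 and 27.0 tags and a fold enrichment of 8.22 and 7.58 over all tested windows. Their median lengths, 1038 bp in TH and 1006 bp in TL, were below the 1069 and 1018 bp of all tested windows. These medians describe peaks of each list and were not tested.

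On the Yorkshire side, 7 regions tied as the longest, each of 4 windows (2000 bp), and 6 of them are described here in Sscrofa10.2 coordinates, taken by most windows of complete separation and then by position. The seventh, chr12:34406001-34408000, had a peak in all 8 Yorkshire animals and 1 TL animal in each window. No annotation of that build was used here, so they are named by position only. The region with the most complete separation was chr13:207969001-207971000, where 3 of the 4 windows had a peak in all 8 Yorkshire animals and in no Tibetan animal. The 4 YH peaks there had 100, 105, 113 and 121 tags and the 5 YL peaks 46, 50, 77, 113 and 140 tags. The TH list had 1 overlapping peak with 30 tags that reached no counted base, and the TL list had none. The single Tibetan peak thus had fewer tags than each Yorkshire peak, but it was 831 bp long and its fold enrichment of 7.7 was above the Yorkshire range of 3.67 to 7.36.

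At chr2:134866001-134868000, 4 YH animals and 3 to 4 YL animals had a peak in each window, against no TH animal and at most 1 TL animal. The 8 Yorkshire peaks had between 36 and 56 tags and a fold enrichment between 4.41 and 6.45, and the 1 TL peak had 40 tags and a fold enrichment of 7.22. The Tibetan peak therefore lay within the Yorkshire range in tags and above it in fold enrichment. At chr8:43381501-43383500 no Tibetan peak overlapped the region or lay within 2000 bp of it, while 3 YH animals (68, 81 and 85 tags) and 4 YL animals (73, 134, 154 and 165 tags) had a peak in each window.

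In the other 3 Yorkshire regions, on chromosome 11 (chr11:1308501-1310500) and chromosome 12 (chr12:5162001-5164000 and chr12:5483501-5485500), all 8 Yorkshire animals and 1 TH animal had a peak in each window. The TH peak had 79 tags on chromosome 11, within the Yorkshire range of 58 to 120. At the chromosome 12 regions the TH peak had 129 tags (Yorkshire 67 to 148) and 158 tags (Yorkshire 121 to 292), again within the range. Its fold enrichment at the first of these, 6.78, was above that of all 8 Yorkshire peaks (3.24 to 4.47). Within 2000 bp there were 6 Tibetan peaks at the chromosome 11 region and 7 at the second chromosome 12 region, but only the overlapping 1 at the first. With equal lists, all 4 windows of each of the 6 regions still differed by at least 7 animals, but this was fixed in advance. Equal lists drop only the peaks with the fewest tags. Each Yorkshire peak at these regions had at least 36 tags, above the median of its list (29.0 in YH, 30 in YL), so none could be dropped.

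On the Tibetan side, 8 regions tied as the longest with 2 windows (1000 bp) each, and 6 are described by the same order. The other 2, chr16:23674001-23675000 and chr17:28234501-28235500, had a peak in 4 TH animals, 3 TL animals and no Yorkshire animal in each window. At chr11:12331001-12332000, all 8 Tibetan animals had a peak in the first window, with 25, 30, 33 and 45 tags in TH and 16, 21, 25 and 30 tags in TL, and in the second window 1 TL animal lacked one. A YH peak with 16 tags touched the region without reaching a counted base, and YL had no peak within 2000 bp. This was the only named Tibetan region with a window of complete separation.

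At chr3:9544001-9545000 a peak was found in 4 TH animals (24, 42, 63 and 77 tags) and 3 TL animals (33, 43 and 46 tags) and in no Yorkshire animal within 2000 bp. At chr3:4215501-4216500 all 8 Tibetan animals had a peak (21 to 46 tags), and so did 1 YL animal (30 tags). The other 3 regions, chr6:104468001-104469000, chr8:35114501-35115500 and chr13:132487501-132488500, each had a peak in 3 TH animals and 4 TL animals and none over the region in Yorkshire animals. Their tags ranged from 27 to 57, from 19 to 38 and from 20 to 34. With equal lists TL loses no peak, and a lost Yorkshire peak cannot lessen a Tibetan-side difference, so little could change here. Each of the 6 Tibetan regions kept a difference of at least 7 animals in both windows. Beside the first, complete separation was seen at chr13:85597001-85597500 (35 to 43 tags in TH, 24 to 47 in TL) and chr13:191747501-191748000 (13 to 22 and 12 to 17 tags), which are single windows named because there are only 3 such windows in all. At the first of these, 2 YH peaks and 1 YL peak overlapped the window without reaching its counted base, with 5 YH and 2 YL peaks within 2000 bp. At the second, no Yorkshire peak lay within 2000 bp.

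Windows that differed between breeds were found on all 18 chromosomes. The share of tested windows at an unadjusted p under 0.05 ran from 5.51% on chromosome 16 to 8.19% on chromosome 15, and the Yorkshire side held between 82.4% (chromosome 11) and 92.0% (chromosome 16) of them. For the strongest class the spread was wider, from 0.210% of tested windows on chromosome 16 to 0.686% on chromosome 13 and 0.636% on chromosome 8. Chromosome 13 held 56 Yorkshire and 7 Tibetan windows of this class, chromosome 8 held 51 and 2, and chromosome 12 held 36 and 0.

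**Figure D3:**
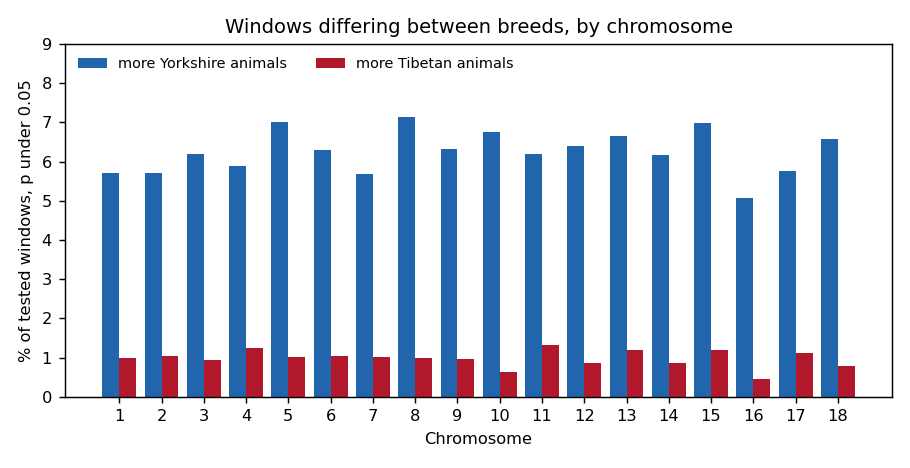
Share of tested windows with an unadjusted p under 0.05 (vertical axis, %) on each of chromosomes 1 to 18 (horizontal axis), with bars for windows with more Yorkshire animals and with more Tibetan animals. On each chromosome the Yorkshire bar is the taller, between 5.07% and 7.14%, while the Tibetan bar lies between 0.442% and 1.32%.

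The share also held across how common a window was. Where 5 of the 16 animals had a peak, 80.8% of the windows at an unadjusted p under 0.05 were on the Yorkshire side (2295 of 2842). Where 10 animals had one, it was 94.7% (504 of 532), and where 11 had one it was 93.4% (969 of 1038). The Yorkshire share was thus higher in the common windows than in the rare ones, a description without a test.

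In bins of 1 Mb, 404 bins held at least 1 window of the strongest class, and 240 of these held only 1. Over the 1992 bins with at least 20 tested windows, the mean difference (Tibetan minus Yorkshire, in animals) had a median of -0.972 and ranged from -2.85 to 1.10, with 1939 bins below 0 and 48 above. Only 7 bins held 5 or more windows of the strongest class. The densest was chromosome 8 from 43 to 44 Mb, with 14 such windows, all on the Yorkshire side, and 52 of its 139 tested windows (37.4%) at an unadjusted p under 0.05. It was also the bin with the lowest mean difference. Next came chromosome 12 from 5 to 6 Mb, with 8 windows of the class. The highest share, 43.6% of 39 tested windows, was on chromosome 13 from 204 to 205 Mb, with 3 windows of the class.

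Within the chromosome 8 bin, the difference lay in a stretch of 600 kb (chr8:43300001-43900000), whose limits were set after its values were seen, so that its counts are a description. Of its 95 tested windows, 48 (50.5%) had an unadjusted p under 0.05 and all 48 were on the Yorkshire side. The mean number of animals with a peak was 0.874 in TH, 0.779 in TL, 2.34 in YH and 3.03 in YL, against 1.70, 1.5, 1.94 and 2.21 over all tested windows. The Tibetan groups were thus lower and the Yorkshire groups higher here than elsewhere. In the elevation contrast 0 of the 95 windows had an unadjusted p under 0.05, and in the crossed contrast 2 did.

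The stretch was not uniform. Between 43.8 and 43.9 Mb, 14 of 15 tested windows had an unadjusted p under 0.05, with a mean of 0.267 animals in TH and 0.133 in TL against 2.600 in YH and 3.200 in YL. Between 43.6 and 43.7 Mb only 2 of 12 did, and the mean difference was -0.250 animals. The Yorkshire peaks of the stretch were also heavier, with median tags of 46.0 in YH and 66.5 in YL against 26.0 in TH and 23.0 in TL, while their median fold enrichment was lower (5.95 and 6.08 against 7.74 and 7.70).

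One region of the stretch (chr8:43554501-43555000) had a peak in all 16 animals, and there the tags could be set side by side. Peak calls depend on tags and the stretch was chosen for its peaks, so these tags are a description and no independent evidence. They ranged from 45 to 112 with a median of 74.5 in the 8 Tibetan animals, and from 111 to 284 in the 8 Yorkshire animals, so the breeds overlapped only between 111 and 112. On the log2 scale, with each list centred on its own median, the difference in tags was -1.22, while the fold enrichment at the same base differed by 0.09 on that scale. Over all 3909 regions with a peak in 16 animals, 0 passed adjustment for tags (lowest adjusted p = 0.101, exact permutation test). The lists hold tags under peaks only, so whether the breeds differ in the number of DNA copies over the stretch was not tested, and the counts of peaks here cannot be read as a difference in methylation alone.

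**Figure D4:**
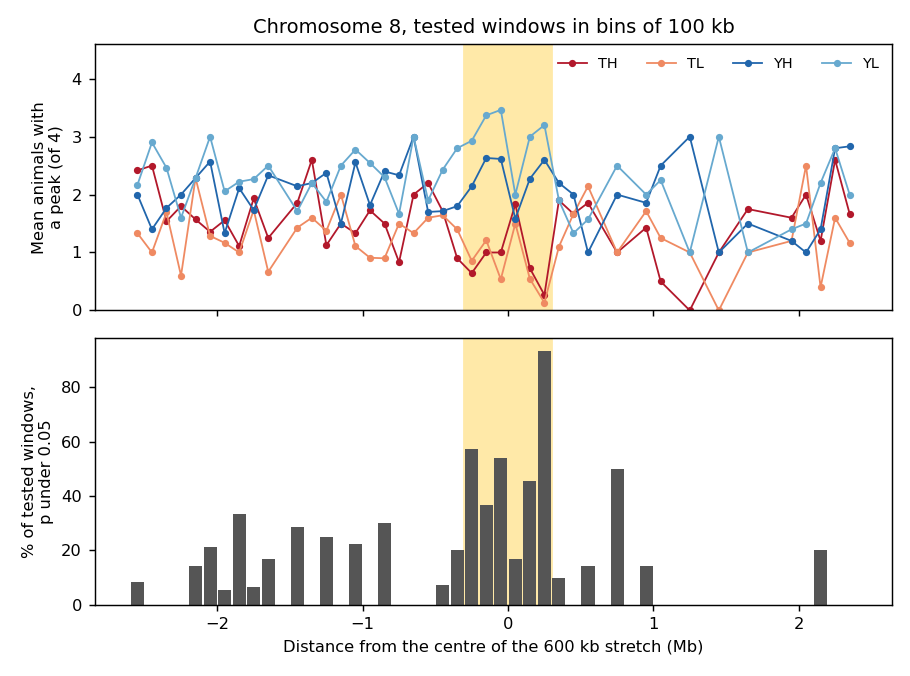
Tested windows of chromosome 8 in bins of 100 kb, by distance in Mb from the centre of the 600 kb stretch (shaded). The upper panel gives the mean number of animals with a peak (of 4) in each group, and the lower panel the share of tested windows with an unadjusted p under 0.05. Inside the shading YH and YL lie above TH and TL in all bins but the one between 43.6 and 43.7 Mb, where the groups meet.

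Genes were reached only through the positions and symbols of a table of the study, which lists windows chosen on these same animals. What follows at these genes is therefore no independent evidence of a breed difference. Only part of that table was used here, with windows chosen between the highland groups on chromosomes 1 and 10 to 14 and between the lowland groups on chromosomes 1, 10 and 11, and all counts of genes below rest on that part. It gave 330 windows of 164 genes. The paper counts several kilobases before the start of transcription as promoter, and as many after its end as the end region. A window called promoter here need not lie at the start itself. No animal had a peak at base 250 in 113 of them, and 74 could be tested. Of these, 29 windows of 20 genes (39.2%, beside 7.23% over all tested windows) had an unadjusted p under 0.05, 24 on the Yorkshire side and 5 on the Tibetan side, all with an adjusted p of at least 0.324. When peaks that overlap a window by at least 1 bp were counted in place of those over base 250, 27 windows had an unadjusted p under 0.05, with the call lost at 1 window each of NPG3, DESI2 and SCCPDH and gained at 1 window of IGF2R (chr1:9199501-9200000, 0 Tibetan against 5 Yorkshire peaks, exact p = 0.0256).

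FOXO1, a transcription factor that is held back by insulin signalling, carried the strongest Tibetan-side window among these genes. In its promoter (chr11:15692001-15692500) a peak was found in 3 TH and 4 TL animals and in no Yorkshire animal (Fisher exact test, unadjusted p = 0.00140). The 3 TH peaks had 15, 17 and 28 tags and the 4 TL peaks 18, 33, 36 and 49 tags. With a limit of at least 20 tags, the peaks of 15, 17 and 18 tags drop out. Too few animals are then left at this window for it to be tested. The window before it (chr11:15691501-15692000) had a peak in 2 TH and 4 TL animals and again in no Yorkshire animal.

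Another 3 genes had 1 window each on the Tibetan side. PDSS2, which makes the side chain of coenzyme Q, had an intronic window (chr1:82664001-82664500) with a peak in all 8 Tibetan animals and in 1 YH and 1 YL animal. PRKG1, the kinase through which cyclic GMP relaxes smooth muscle, had one (chr14:106530001-106530500) with a peak in 2 TH and 3 TL animals and no Yorkshire animal. SH3BGR, a gene expressed in heart and skeletal muscle, had one (chr13:213330501-213331000) with a peak in 3 TH and 2 TL animals and no Yorkshire animal.

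On the Yorkshire side, CAMK1D, a calcium/calmodulin-dependent protein kinase, had 3 intronic windows with an unadjusted p under 0.05. In the strongest of them (chr10:64960501-64961000), all 8 Yorkshire animals had a peak, with 52, 63, 73 and 92 tags in YH and 53, 59, 94 and 98 tags in YL. A single TH animal had a peak there, with 41 tags, below the tags of each Yorkshire animal, and a fold enrichment of 9.16, above that of each Yorkshire animal (5.48 to 8.91).

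ESD, which encodes the esterase D that hydrolyses S-formylglutathione, had an intronic window (chr11:21000501-21001000) with a peak in 3 YH animals (21, 23 and 27 tags), 4 YL animals (15, 34, 35 and 36 tags) and no Tibetan animal. HTR2A, a serotonin receptor on the same chromosome, had one (chr11:20940001-20940500) with a peak in 3 YH and 3 YL animals and no Tibetan animal. SMAD2, a transducer of transforming growth factor beta signals, had an intronic window (chr1:106962501-106963000) with a peak in all 8 Yorkshire animals and in 1 TH and 1 TL animal. In all of these windows the Tibetan animals with a peak numbered 0 or 1 per group.

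NPG3, a gene of the protegrin family of antimicrobial peptides, had 5 windows with an unadjusted p under 0.05, 4 of them in a row (chr13:34213501-34215500). The fifth (chr13:34231001-34231500) lost the call when any overlap was counted (5 Tibetan against 7 Yorkshire peaks, at most 4 per list, exact p = 0.569). At its second window all 8 Yorkshire animals had a peak, with 61, 63, 76 and 170 tags in YH and 43, 52, 61 and 72 tags in YL, and 1 TH animal had one with 18 tags. The protegrin genes are near copies of each other, so where these reads belong is uncertain. LOC780417 had a pair of neighbouring intronic windows (chr13:11761501-11762500) with a peak in all 8 Yorkshire animals and in 1 TL animal.

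The remaining genes differed by 5 animals, all on the Yorkshire side. A peak in 2 YH and 3 YL animals and no Tibetan animal was found at the adjoining windows of TMEM63A (2 windows, near the end of transcription) and EPHX1, the microsomal epoxide hydrolase (chr10:16020001-16021500). WIPF2, which binds an actin regulator, had the reverse of that split (3 YH and 2 YL animals) in its promoter, and so did MYRIP, a linker of myosin to vesicles, in an intron. UBAP1, a part of the machinery that sorts ubiquitin-tagged proteins, had a peak in all 8 Yorkshire and in 3 TH animals, and AGPAT4, an acyltransferase of phospholipid synthesis, had one in 6 Yorkshire animals and 1 TL animal. The 4 windows that lay past the limit of 25 were on the Yorkshire side as well.

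By function the tested windows were few. Of 7 tested windows of genes of growth, insulin and hypoxia signalling, 3 had an unadjusted p under 0.05, the FOXO1 pair on the Tibetan side and SMAD2 on the Yorkshire side, beside 39.2% of all 74 tested windows of the listed genes. The median difference of the 7 was 1.0 animal (Tibetan minus Yorkshire), beside -3.0 over the 74 and -1.0 over all tested windows. It was also 1.0 over 4 windows of vessel and heart genes, and -1.0 over 6 of mitochondrial, lipid and amino acid metabolism genes. Of 4 tested windows of vessel and heart genes, 1 passed that limit (PRKG1), and of 6 windows of mitochondrial, lipid and amino acid metabolism genes, 2 did (PDSS2 on the Tibetan side, EPHX1 on the Yorkshire side). No difference between these shares and that of the listed genes as a whole was tested. The 1 tested window of contractile and muscle genes, in SMYD3, had a peak in 2 TH, 0 TL, 1 YH and 4 YL animals (exact test, p = 0.315), and no window of NR6A1, a gene of vertebral number in pigs, could be tested. At BCKDHB, a subunit of the enzyme complex that breaks down branched-chain amino acids, 2 tested windows had unadjusted exact p-values of 0.282 and 1.00.

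Fold enrichment is a measure that the count of animals does not use, and it could be compared where all 16 animals had a peak. There were 3909 such regions. Of these, 293 (7.50%) had an unadjusted p under 0.05 in a two-sided exact permutation test of mean log2 fold enrichment, each list centred on its median. Elevation gave 136 (3.48%) and the crossed contrast 191 (4.89%). After adjustment 0 regions passed in each contrast, and the lowest adjusted p for breed was 0.202. Differences were small, with a median absolute size of 0.0990 over all regions and 0.300 over the 293.

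Centring each list on its median balances the breeds over all regions by construction, so the split by direction is no result. Enrichment was higher in Tibetan pigs in 151 regions and in Yorkshire pigs in 142, and 290 of the 293 regions had the same sign at both elevations, beside 51.9% of all 3909 regions. The 293 were chosen by a mean over both elevations, which largely fixes that agreement. Without centring, 366 regions had an unadjusted p under 0.05, 310 with Tibetan pigs higher and 56 with Yorkshire pigs higher, so the split depends on that step. Tags in place of fold enrichment gave 175 regions (4.48%), 106 with Tibetan and 69 with Yorkshire pigs higher, relative to the median of each list. As deposited, median tags at these regions were 44.0 in TH and TL, 52.0 in YH and 54.0 in YL.

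Among the 290 regions with an unadjusted p under 0.05 and the same sign at both elevations, the largest Yorkshire difference was at chr15:155340501-155341000. Fold enrichment there was 15.52, 21.78, 23.4 and 27.63 in TH and 10.47, 13.16, 15.77 and 22.16 in TL, against 24.8, 28.49, 28.76 and 29.99 in YH and 27.42, 29.22, 32.55 and 35.46 in YL. As deposited, only the highest TH value reached into the Yorkshire range, and after centring the groups did not overlap. The difference was -0.79 ± 0.16 (SE, log2, Tibetan minus Yorkshire, n = 8 and 8; exact permutation test, p = 1.55e-04, the smallest possible), with -0.54 at high and -1.04 at low elevation. Tags at this region ranged from 13 to 39 in Tibetan and from 33 to 68 in Yorkshire animals.

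The next Yorkshire regions overlapped between breeds in centred values. At chr2:2381501-2382000 fold enrichment ranged from 6.280 to 12.65 in Tibetan and from 9.560 to 18.19 in Yorkshire animals (difference -0.66 ± 0.17, exact p = 0.00218). At chr5:50902501-50903000 the difference was -0.53 ± 0.14 (exact p = 0.00155), and the YH values lay close together, from 14.32 to 15.26. The other 3 (chr12:1711001-1711500, chr5:102723001-102723500 and chr15:36027501-36028000) differed by -0.53, -0.52 and -0.52.

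The largest Tibetan difference among them was at chr6:173501-174000. Fold enrichment was 7.95, 9.88, 10.67 and 12.62 in TH and 9.56, 9.81, 10.48 and 10.74 in TL, against 4.65, 5.35, 6.54 and 7.2 in YH and 4.39, 4.9, 5.92 and 6.03 in YL. Each Tibetan value as deposited was above each Yorkshire value, and after centring the lowest Tibetan value fell just under the highest Yorkshire value. The difference was 0.80 ± 0.12 (SE, log2, n = 8 and 8; exact permutation test, p = 3.11e-04), and tags there ranged from 230 to 517 in Tibetan and from 62 to 317 in Yorkshire animals. The difference in tags was 1.77 on the centred log2 scale (exact permutation test, p = 3.11e-04).

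At chr13:24505501-24506000 (0.76 ± 0.17), chr6:11159501-11160000 (0.68 ± 0.15) and chr18:26385501-26386000 (0.67 ± 0.15), enrichment was higher in Tibetan pigs while the tags differed by -0.06, -0.04 and 0.02 on the centred log2 scale. Their unadjusted exact p-values for tags were 0.815, 0.878 and 0.919. At chr8:10207001-10207500 and chr12:53588501-53589000 enrichment differed by 0.59 and 0.58. In the last, the Yorkshire animals fell into a lower and a higher pair in YH (7.02, 7.95, 12.77 and 15.42) and in YL (6.05, 7.84, 15.61 and 16.31), while the Tibetan values lay between 13.21 and 20.06.

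**Figure D5:**
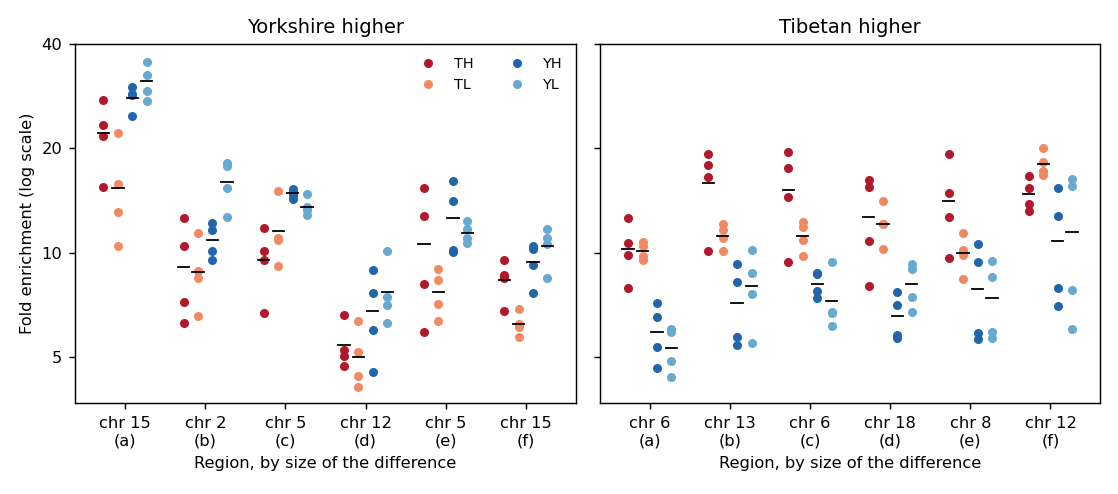
Fold enrichment as deposited (vertical axis, log scale) of each animal's peak in TH, TL, YH and YL (points, 4 per list, bars at the mean) at the 6 regions with the largest difference in each direction among the 290 with an unadjusted p under 0.05 and the same sign at both elevations, ordered by size from a to f within each panel. In the chromosome 6 region at the left of the Tibetan panel all 8 Tibetan points, from 7.95 to 12.62, lie above all 8 Yorkshire points, while at the chromosome 12 region at its right the Yorkshire points form 2 clumps in each list.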

How the data were processed

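MeDIP-seq was done on heart DNA of 16 animals, 4 per group. The authors removed reads with adapters, low quality or short length with FASTX, mapped the rest with Bowtie to Sscrofa10.2 and called peaks with MACS, as the paper's methods state. They deposited 1 list per group, with tags per peak as a count and fold enrichment as a ratio, neither normalized further. How reads with several matches were treated is not given in the sources used here. In 1 list (TH) the end of 100907 peaks had to be taken from the joint start and end field.

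Peaks over base 250 of each 500 bp window were counted per list. Two-sided Fisher exact tests and Benjamini-Hochberg adjustment covered all windows with a peak in 5 to 11 animals. At regions with 16 peaks, log2 fold enrichment was centred per list and compared by an exact permutation test over all assignments of 8 animals. Regions were named by length (6 per direction), enrichment regions by size of difference (6 per direction, among those with an unadjusted p under 0.05 and the same sign at both elevations) and genes by p (at most 25 windows). The members, lists and tests were chosen with earlier results of these data known. Fold enrichment of 4 animals was checked for values far from the other 3. The functions were tested on simulated data.

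The work used SciPy 1.17.1, pandas 2.3.3, NumPy 2.4.6 and, for the figures, Matplotlib 3.10.9, all under Python 3.11.15. The depth per animal was not used here, and intervals cover counting error only. Gene annotation and sequence of Sscrofa10.2 were not used here.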

Additional observations from a re-analysis of the deposited data

Results flagged for a closer look

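Chromosome X and the unplaced scaffolds lay outside the comparison, and both held windows that differed between the breeds. On chromosome X, 412 of 4403 tested windows (9.36%) had an unadjusted p under 0.05 in the Fisher exact test, 399 with more Yorkshire and 13 with more Tibetan animals, and 0 passed adjustment. The elevation contrast gave 31 windows there (0.704%) and the crossed contrast 87 (1.98%). The mean number of animals with a peak in the tested windows of chromosome X was 0.949 in TL against 1.66 in TH, 2.14 in YH and 2.29 in YL, and its list had 3821 peaks there against 7015, 7650 and 8911. The part of the TL list in the count on chromosome X was not tested. On the unplaced scaffolds, 685 of 9026 tested windows (7.59%) had an unadjusted p under 0.05, 593 with more Yorkshire and 92 with more Tibetan animals.

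At the 12 enrichment regions named and the region of the chromosome 8 stretch, the 52 sets of 4 values per list held 0 values far from the other 3 by Dixon's criterion, which chance alone would reach in about 1 of 20 sets.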

How the results depend on the processing

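The Yorkshire side held the larger share of windows under each of the 14 alternatives tried, between 55.8% and 96.5%, and 0 windows passed adjustment in each, with a lowest adjusted p of 0.221. Of 86 recomputed values 58 stayed within 1.5 times the count, or inside the interval of the share, reported, 28 moved and 0 reversed. Some of the 58 could not change. Testing all windows with a peak adds only windows that cannot reach an unadjusted p under 0.05. The class of at least 7 animals is set by counts, so stratifying by elevation leaves it as it was. The Yorkshire share moved to 80.8% with equal lists, 91.0% with at least 20 tags and 83.3% with peaks at or above the median fold enrichment of their list. It was 69.4% without TH, 55.8% without TL, 96.5% without YH, 92.9% without YL, 79.3% at high and 88.5% at low elevation. Windows differing between breeds moved to 3711 with that limit on fold enrichment and to 5649 with windows of 1000 bp, both of which test fewer windows, and to 5245 without TH, 4848 without TL, 5190 without YL, 2303 at high and 3747 at low elevation, which use fewer animals. With that limit and with windows of 1000 bp, the class of at least 7 animals held 204 and 339 windows, elevation gave 977 and 1245 and the crossed contrast 1728 and 2178. The enrichment regions moved to 175 with tags, 538 without TH (7216 regions tested) and 189 at high elevation. For the class of at least 7 animals no value was computed with a list left out or for 1 elevation, where 7 animals of difference have another meaning.

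No paired analysis was possible because the lists carry no animal names, and for the same reason leaving out single animals was not run. Which windows stayed with equal lists, and the tests of chromosome X and the scaffolds, were added after seeing the data. The lists hold called peaks, so weak methylation under the caller's threshold is not seen, and depth per animal was not used here.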
